A study of Mus musculus with 3 samples.

Results

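Serine tRNAs with a long variable arm were examined in small RNA libraries of mouse epididymis. The members were all gene copies named tRNA-Ser-AGA, tRNA-Ser-CGA, tRNA-Ser-TGA or tRNA-Ser-GCT, which gave 22 of the 446 nuclear tRNA genes in the deposited count table. They comprise 8 Ser-AGA, 3 Ser-CGA, 3 Ser-TGA and 8 Ser-GCT copies. The tissue came from Alkbh3-/- mice, which lack the RNA and DNA demethylase ALKBH3 (2 libraries), and from wild type mice (1 library). All 3 libraries were made from untreated epididymis, the duct in which sperm mature, from RNA cut out of a gel at 15 to 50 nt, so the reads describe tRNA fragments and not intact tRNA. The labels give no age or sex, and nothing in them ties the 2 Alkbh3-/- libraries to different animals. The p-values below therefore measure only the spread between these libraries, which may be technical. The deposited name of the wild type column begins with B6 and those of the Alkbh3-/- columns do not, and the labels give no strain background for either genotype. The names of the Alkbh3-/- columns hold different numbers that match neither replicate number of the labels, and whether they name animals is not stated. The letters A and B therefore stand for the Alkbh3-/- libraries in column order.

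Serine tRNAs, with those for leucine and selenocysteine, form the class of tRNAs whose variable arm, between the anticodon stem and the T stem, is extended into a stem of its own. Seryl-tRNA synthetase charges all serine isoacceptors, and it recognises this arm instead of the anticodon. Serine tRNAs also carry 3-methylcytidine at the first base of the anticodon loop, and ALKBH3 is known to remove 3-methylcytidine and 1-methyladenosine from RNA.

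Sequences were obtained for 4 of the 21 serine copies with coordinates, from GENCODE M21 transcripts that cover them in build mm10. They are shown because the fragments described below turn on which bases the isoacceptors share. tRNA-Ser-AGA-2-1 lies at chr4:10874064-10874145 on the plus strand, tRNA-Ser-TGA-2-1 at chr13:21924935-21925016 on the minus strand, and tRNA-Ser-GCT-4-2 at chr13:22050686-22050767 on the minus strand. The DNA sequences are written 5′ to 3′, and the capitals mark the 14-nt variable arm, bases 44 to 57.
tRNA-Ser-AGA-2-1: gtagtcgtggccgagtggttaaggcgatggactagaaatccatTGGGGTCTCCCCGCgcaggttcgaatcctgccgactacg
tRNA-Ser-TGA-2-1: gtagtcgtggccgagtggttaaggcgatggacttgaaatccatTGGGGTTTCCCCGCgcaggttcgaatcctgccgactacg
tRNA-Ser-GCT-4-2: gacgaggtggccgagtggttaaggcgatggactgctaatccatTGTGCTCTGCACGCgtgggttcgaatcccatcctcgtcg
The fourth sequence, tRNA-Ser-TGA-2-2 at chr13:23518146-23518227 on the plus strand, was identical to tRNA-Ser-TGA-2-1. The Ser-AGA and Ser-TGA copies differed at 2 of 82 bases, A34T in the anticodon and C50T in the variable arm, with the Ser-AGA base first and positions counted from 1 at the 5′ end. Their first 24 bases and their last 24 bases were identical. The Ser-GCT copy differed from the Ser-AGA copy at 20 bases, 4 of them in the first 24 and 9 in the last 24. The first base of the anticodon loop was C32 in all 4 sequences. No sequence of a Ser-CGA copy was used here.

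The 21 copies with coordinates were each 82 nt long, and each matched the position of a RefSeq tRNA gene of assembly GRCm38.p6. Of these copies, 12 were on chromosome 13, 3 on chromosome 11, 2 on chromosome 10 and 1 each on chromosomes 1, 2, 4 and 19. By GENCODE M21, 16 lay between genes. tRNA-Ser-AGA-2-1, tRNA-Ser-TGA-2-1 and tRNA-Ser-TGA-2-2 lay in single exons that GENCODE lists with the biotype miRNA, under the names n-TSaga9, Gm44456 and n-TStga1. tRNA-Ser-GCT-4-2 lay antisense to an exon of Gm48356, and tRNA-Ser-AGA-2-5 lay in an intron of Gm11280. The remaining copy, tRNA-Ser-AGA-3-1, had 0 reads in all 3 libraries.

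Serine tRNAs were a very small part of the tRNA reads in this tissue. The libraries held 15411457 reads (A) and 21169908 reads (B) in the Alkbh3-/- samples and 15107055 reads in the wild type, summed over the 5 RNA classes of the deposited class table. That sum is the library size behind every value in reads per 1000000 (RPM) below. Serine tRNA genes had 1405 and 2184 counts in Alkbh3-/- libraries A and B, against 1098 in the wild type library, which is 0.0421% and 0.0458% against 0.0274% of all tRNA gene counts. In RPM the serine sum was 91.2 and 103, against 72.7. The tRNA class as a whole took 36.5% and 38.1% of the reads in the Alkbh3-/- libraries, against 44.7% in the wild type, and the miRNA class took 24.8% and 30.7%, against 15.1%. The part of these class shares in the serine values was not tested. In bulk tissue, fewer cells of a type and less RNA per cell cannot be told apart.

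Among the isoacceptors, the tRNAs that share an anticodon, Ser-AGA was the only serine member that passed the test, and it was higher in Alkbh3-/- epididymis. Ser-AGA, which reads UCU and UCC codons after its first anticodon base is converted to inosine, had 38.2 RPM (A) and 47.6 RPM (B) in Alkbh3-/- libraries and 28.4 RPM in the wild type library, from 588, 1008 and 429 counts. Both Alkbh3-/- values lay above the wild type value, and the gap between library A and wild type was about as large as the gap between A and B. The mean was 42.9 ± 6.69 RPM in Alkbh3-/- libraries (SD, n = 2), and the log2 fold change was 0.62 (SE 0.21), with an adjusted p of 0.022 by edgeR's quasi-likelihood test with Benjamini-Hochberg adjustment over 46 isoacceptors. In that fit the spread was pooled over all isoacceptors, with 1 residual degree of freedom, so the single wild type library was taken to have the spread of the Alkbh3-/- ones. Of the 46 isoacceptors, 6.52% were called higher and 17.4% lower in Alkbh3-/- libraries, and 1 of 4 serine isoacceptors was called higher and 0 lower. The Ser-AGA call was lost with DESeq2 (adjusted p 0.062), with TMM scaling (adjusted p 0.073), with edgeR's legacy quasi-likelihood method (adjusted p 0.26) and with the reads of the fragment tables (edgeR adjusted p 0.17). No serine call remained with Ser-AGA and Ser-TGA summed, an alternative chosen after the data were seen. Most fragments of both were short, and short reads of the sequenced copies cannot be assigned between them, as described below.

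Ser-GCT, the isoacceptor for the AGU and AGC codons, had 39.5 and 38.4 RPM in Alkbh3-/- libraries A and B and 31.4 RPM in the wild type library. The Alkbh3-/- libraries lay close together and above wild type, with a log2 fold change of 0.31 (SE 0.20) that did not pass (edgeR adjusted p 0.33). Ser-TGA, which decodes UCA, had 11.2 and 15.0 RPM in Alkbh3-/- libraries and 11.3 RPM in the wild type library. Library A was at the wild type level and B above it (log2 ratios of −0.01 and 0.40), and the fold change of 0.24 (SE 0.29) did not pass (edgeR adjusted p 0.62). Ser-CGA, which decodes UCG, had only 35 and 47 counts in Alkbh3-/- libraries and 24 in the wild type library. That was 2.27 and 2.22 RPM against 1.59 RPM, and a log2 fold change of 0.49 with an SE of 1.04 (edgeR adjusted p 0.77).

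**Figure D1:**
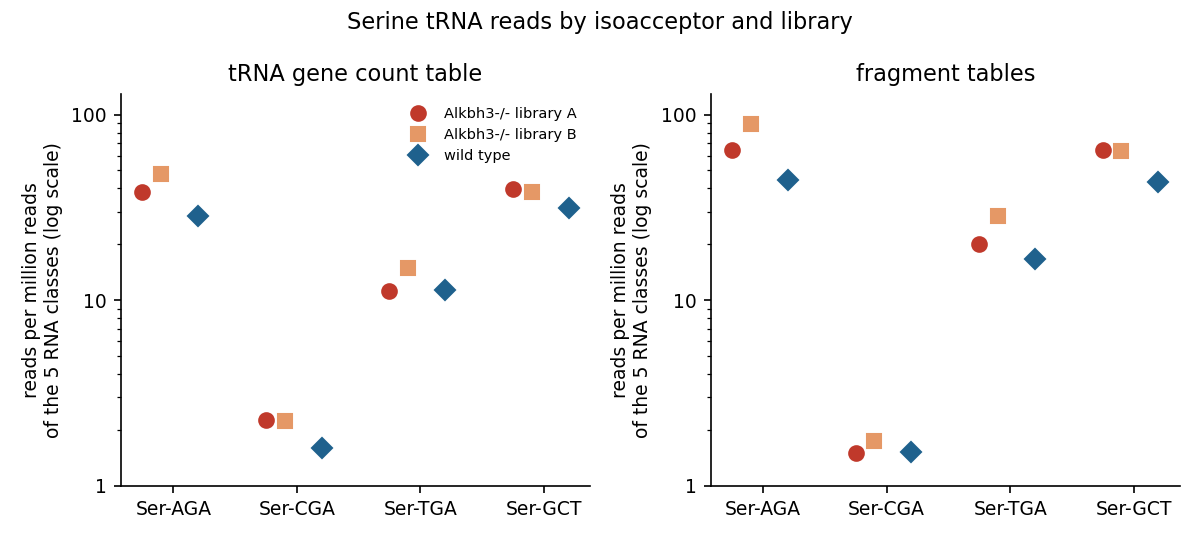
Reads per 1000000 reads of the 5 RNA classes (log axis) for the 4 serine isoacceptors, from the tRNA gene count table (left panel) and from the fragment tables (right panel). Each point is 1 library. Ser-AGA and Ser-GCT lie above wild type in both Alkbh3-/- libraries in both panels, while Ser-TGA of library A lies at 11.2 against 11.3 RPM in the gene counts and at 20.1 against 16.7 RPM in the fragment tables.

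The order of the levels was the same in the lower ranks of every library. Ser-TGA lay below Ser-AGA and Ser-GCT, and Ser-CGA below Ser-TGA, in all 3 libraries, while Ser-AGA and Ser-GCT changed places. Ser-GCT was the higher of the pair in library A and in wild type, and Ser-AGA in library B, with ratios of Ser-AGA to Ser-GCT of 0.966 and 1.24 in Alkbh3-/- libraries and 0.905 in wild type. Among the 56 isoacceptors of the table, Ser-AGA ranked 27 and 26 in Alkbh3-/- libraries and 35 in wild type, and Ser-GCT ranked 26 and 29, against 32. Ser-TGA ranked 38 and 38, against 40, and Ser-CGA ranked 45 in all 3 libraries. Isoacceptors above wild type in both Alkbh3-/- libraries were 3 of the 4 serine members, beside 23.9% of the 46 tested. Below wild type in both were 0 of the serine members, beside 52.2% of those tested.

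The 4 serine fold changes were all above 0 under each scaling tried, except that Ser-TGA was at −0.01 without library B and Ser-CGA at −0.36 without its most-read copy. Their median was 0.40, whereas the median over all 46 isoacceptors was −0.26, with 18 of the 46 above 0. That overall median depends on the scaling. It was 0.01 with the tRNA table's own sum as library size, −0.10 with TMM and 0.02 with DESeq2. Relative to the median of all isoacceptors, Ser-AGA stood at 0.88 and Ser-GCT at 0.56 with the class sum as library size, and at 0.89 and 0.62 with DESeq2. A change of library size moves all fold changes by nearly the same amount. These relative values therefore stay alike under any scaling, and their likeness is no support for a change. The split of all calls also moved, with 3 isoacceptors higher and 8 lower with the class sum, 4 higher and 5 lower with the table's own sum, and 2 higher and 1 lower with DESeq2.

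**Figure D2:**
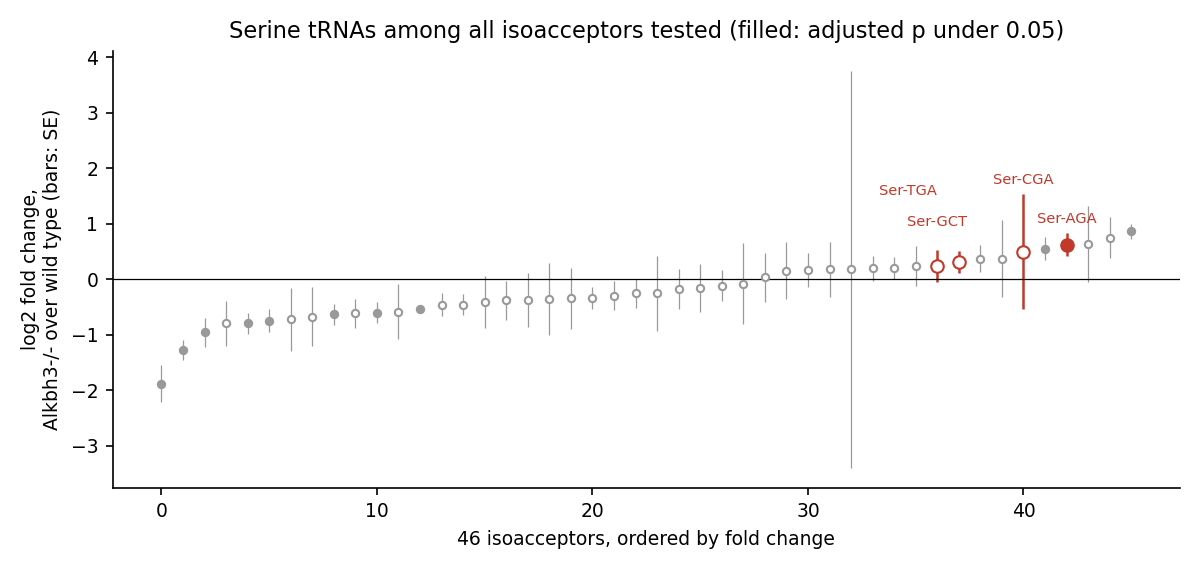
Log2 fold change of each of 46 isoacceptors, Alkbh3-/- over wild type, with its SE, ordered by size. Serine isoacceptors are red, others grey, and filled points have an edgeR adjusted p under 0.05. The serine values run between 0.24 and 0.62, and Ser-AGA is the only filled red point.

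The other tRNAs with a long variable arm gave a median close to that of serine. Of 6 leucine and selenocysteine isoacceptors, 5 were tested (no row for Leu-CAA was used), with a median log2 fold change of 0.37. Leu-CAG was higher in Alkbh3-/- libraries (38.0 and 46.2 RPM, against 29.1 RPM in wild type; log2 fold change 0.55, SE 0.21, edgeR adjusted p 0.044). The other 4 did not pass. The most abundant of them were SeC-TCA, the selenocysteine tRNA, with 86.6 and 113 RPM against 133 RPM in wild type (log2 fold change −0.38), and Leu-TAG with 86.2 and 89.5 RPM against 78.7 RPM (0.16). Among 6 other tRNAs known to carry 3-methylcytidine, 5 were tested and the median was −0.46. Over all 46 isoacceptors the median was −0.26, with 6.52% called higher and 17.4% lower. Thr-AGT was lower in Alkbh3-/- libraries (20.1 and 21.5 RPM, against 50.8 RPM in wild type; log2 fold change −1.28, SE 0.18, edgeR adjusted p 2.5e-07). Leu-CAG, which is on both lists, was higher, and the other 3 did not pass, among them the most abundant, Arg-CCT, with 44.1 and 45.3 RPM against 61.6 RPM in wild type (−0.46).

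Single gene copies were tested apart, with the caution that near-identical copies can share reads and that the sources used here do not say how shared reads were assigned. Of the 22 serine copies, 21 had 10 or more reads over the 3 libraries, and 0 of these passed in edgeR's test, beside 9.81% of all 367 copies tested (2.45% higher and 7.36% lower). Without adjustment, 5 of the 21 serine copies had a p under 0.05, beside 61 of all 367, and DESeq2 called 0 serine copies and 18 of all copies. DESeq2 gave no adjusted p for the serine copies with the fewest reads, among them every Ser-CGA copy, so it could not call those. Values above wild type in both Alkbh3-/- libraries were found for 16 of the 21, beside 22.1% of all copies, and values below it in both for 2, beside 47.4%. The median log2 fold change of the 21 copies was 0.50, and that of all copies −0.15.

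Ser-AGA copies carried similar counts except for tRNA-Ser-AGA-2-2. This copy, at chr11:69037477-69037558 (plus strand), had 152 and 195 counts in Alkbh3-/- libraries and 125 in wild type, which is 25.9% and 19.3% of the Ser-AGA counts against 29.1%. In the fragment tables the same copy did not stand apart, with 14.5% and 13.7% of the Ser-AGA reads against 12.9%. Its log2 fold change was 0.20 (SE 0.21). The next, tRNA-Ser-AGA-2-3 on chromosome 13, had 89 and 156 counts against 53 in wild type, and its log2 fold change was 0.93 (SE 0.29), with an adjusted p of 0.16 by edgeR. Its share of the Ser-AGA reads in the fragment tables was 12.9% and 13.5%, against 13.5%. No sequence of either copy was obtained, so whether their reads can be told apart is not known. For Ser-TGA, tRNA-Ser-TGA-2-2 had 95 and 156 counts against 98 in wild type (log2 fold change 0.08, SE 0.22), and the identical tRNA-Ser-TGA-2-1 had 70 and 140 against 60 (0.53, SE 0.37). These 2 copies have the same 82 bases, so reads that lie inside the gene cannot be told apart between them.

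Among Ser-GCT copies, tRNA-Ser-GCT-4-3 on chromosome 13 had 148 and 159 counts in Alkbh3-/- libraries and 91 in wild type (log2 fold change 0.48, SE 0.27). tRNA-Ser-GCT-4-1 on chromosome 11 had 125 and 175 counts against 111 in wild type (0.16, SE 0.19). For this pair too, no sequence was obtained, and whether their reads can be told apart is not known. Ser-CGA was split among its copies. tRNA-Ser-CGA-2-1 on chromosome 10 had 21 and 29 counts in Alkbh3-/- libraries and 7 in wild type, so both Alkbh3-/- libraries were above it, and the log2 fold change was 1.55 (SE 0.81), with an adjusted p of 0.54 by edgeR. It passed only with no filter on low counts (adjusted p 0.041) or with the table's own sum as library size (adjusted p 0.020), both by edgeR. DESeq2 gave no adjusted p for this copy. tRNA-Ser-CGA-1-1 on chromosome 11 had 8 and 9 counts against 12 in wild type (−0.76, SE 1.55). Without its most-read copy, the log2 fold change of Ser-CGA was −0.36 instead of 0.49.

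The fragment tables give, for each gene, the reads at each length in 2 end classes that the files number but do not name. They held 2318 and 3870 serine reads in Alkbh3-/- libraries and 1601 in wild type. Most Ser-AGA and Ser-TGA fragments were short. In Ser-AGA, 95.6% and 95.7% of the reads in Alkbh3-/- libraries were 24 nt or shorter, against 91.5% in wild type. The same share was 0.218% and 0.294% against 0.180% over all other tRNAs, whose reads were mostly 30 to 33 nt (84.3% and 84.1% against 90.7%). For Ser-TGA, the mean share at 24 nt or shorter was 17.3 percentage points higher in Alkbh3-/- libraries than in wild type. With the first end class alone it was 4.58 points higher. The median length was 24 nt for all serine reads together and 31 nt for other tRNAs in every library. By isoacceptor it was 24 nt in every library for Ser-AGA and Ser-TGA, but 32 and 24 nt in Alkbh3-/- libraries and 32 nt in wild type for Ser-GCT. For the sparse Ser-CGA it was 38 and 25 nt, against 25 nt.

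The share of short reads was higher in serine than in other tRNAs in all 3 libraries. Over all serine reads, 71.0% and 85.0% were 24 nt or shorter in Alkbh3-/- libraries and 68.8% in wild type, and each of the 4 isoacceptors lay above the other tRNAs in 3 of 3 libraries. A two-sided exact permutation test paired by library gave p = 0.25 for each, the smallest that 3 libraries can give, and 0.25 after Benjamini-Hochberg adjustment. Gly-GCC and Glu-CTC hold most of the other tRNA reads, and without them the share in other tRNAs was 1.45% and 1.94% against 1.10%, an alternative chosen after the data were seen. Among the 31 isoacceptors with at least 500 fragment reads in every library, Ser-AGA ranked 1 and Ser-GCT ranked 2 for this share in all 3 libraries. The highest isoacceptor of another amino acid reached 8.74% in library A (Val-AAC), 9.56% in library B (Lys-TTT) and 7.21% in wild type (Leu-CAG).

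The 24-nt read of the first end class was the leading fragment of Ser-AGA, Ser-TGA and Ser-GCT. Ser-AGA had 696 and 1283 such reads in Alkbh3-/- libraries and 483 in wild type, and the log2 fold change was 0.73 (SE 0.58), with an adjusted p of 0.59 by edgeR. Ser-TGA had 202 and 399 against 143 (0.77, SE 0.65), and Ser-GCT 299 and 648 against 230 (0.73, SE 0.62). In RPM, both Alkbh3-/- libraries were above wild type for all 3 isoacceptors, and library B was the higher of the pair each time. The reads of 23 and 22 nt followed for Ser-AGA, with 108 and 234 reads against 61 in wild type at 23 nt (1.18, SE 0.72) and 57 and 130 against 40 at 22 nt (0.92, SE 0.74). For Ser-TGA they were 30 and 64 against 16 (1.26, SE 0.81) and 28 and 37 against 11 (1.28, SE 0.83). Ser-CGA was too sparse to test by length, with 1 and 15 reads against 5 at 24 nt, 5 and 8 against 4 at 25 nt, and 0 and 2 against 3 at 22 nt.

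The 24-nt reads were spread almost evenly over Ser-AGA and Ser-TGA copies. A set of 9 copies, 7 of Ser-AGA and 2 of Ser-TGA, held 88 to 121 such reads each in library A (median 94), 172 to 205 in library B (median 181) and 57 to 80 in wild type (median 72). These are the Ser-AGA and Ser-TGA copies with 50 or more such reads in wild type, a limit chosen after the values were seen. The SD over these copies was 10.8, 10.6 and 7.18 reads, close to the square roots of the means, 9.94, 13.6 and 8.30, which is the spread that counting alone gives. Over these 9 copies, the ratio of Ser-AGA to Ser-TGA 24-nt reads was 3.59 and 3.39 in Alkbh3-/- libraries and 3.53 in wild type, beside a ratio of 3.5 in the number of copies. The Ser-AGA and Ser-TGA copies whose sequences are given above have the same first 24 and last 24 bases, so a read of that length from either end cannot be assigned to one or the other, and at 24 nt their values are not separate measurements. Summed into 1 isoacceptor, an alternative chosen after this was seen, Ser-AGA and Ser-TGA had a log2 fold change of 0.52 (edgeR adjusted p 0.091). The third Ser-TGA copy, tRNA-Ser-TGA-1-1, had 8 and 20 such reads against 6 in wild type.

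Ser-GCT fragments peaked at 3 lengths. At 24 nt or shorter it had 41.3% and 67.7% of its reads in Alkbh3-/- libraries, against 43.8% in wild type, so the Alkbh3-/- libraries lay on both sides of wild type. At 30 to 33 nt it had 25.9% and 18.3%, against 25.04%, led by 32-nt reads of the first class (145 and 129, against 93 in wild type; log2 fold change 0.31, SE 0.67). The remaining peak was 53-nt reads of the second class, longer than the gel range in the labels. These numbered 206 in library A and 30 in library B, against 80 in wild type. The log2 fold change of 0.39 rests on library A alone, since without A it was −1.89. Of these reads, 98 and 14, against 35 in wild type, were on tRNA-Ser-GCT-4-3, while tRNA-Ser-GCT-2-1, with 54 and 121 24-nt reads against 37, had 0 of them in all 3 libraries.

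**Figure D3:**
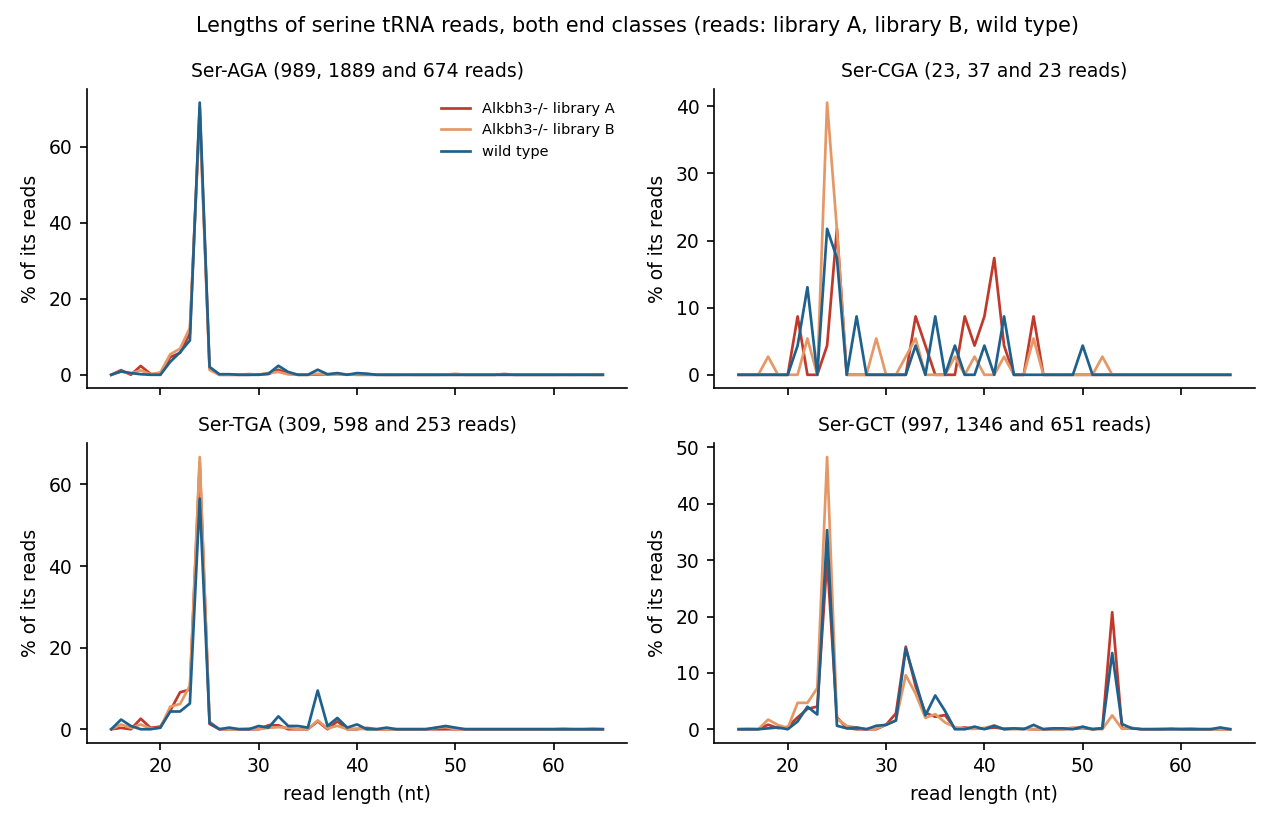
Length of serine tRNA reads as a percentage of the reads of each isoacceptor, both end classes together, 1 line a library. Ser-AGA and Ser-TGA peak at 24 nt in every library, Ser-GCT has further peaks at 32 nt and at 53 nt, and Ser-CGA has only 23 and 37 reads in the Alkbh3-/- libraries and 23 in wild type.

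Of the serine isoacceptors, Ser-TGA held a smaller share of the second end class in both Alkbh3-/- libraries, and Ser-GCT did so up to 49 nt. The share was also smaller in both for Ser-AGA, from few reads and with intervals that overlap that of wild type, as given below. In Ser-TGA it was 4.53% (14 of 309 reads) and 4.52% (27 of 598) in Alkbh3-/- libraries, against 18.6% (47 of 253) in wild type. The exact Clopper-Pearson 95% intervals were 2.50% to 7.49% and 2.996% to 6.50%, against 14.0% to 23.9%, and they cover counting error only. The Alkbh3-/- libraries lay together and apart from wild type. Most Ser-TGA reads were 24 nt or shorter, and the sequenced Ser-AGA copy has the same first 24 and last 24 bases. The Ser-TGA share therefore depends on how such reads were assigned. With 2 libraries against 1, an exact permutation test cannot go below p = 0.33, so the difference is given as values. In Ser-GCT the share was 2.69% and 3% against 9.64% for reads up to 49 nt, with intervals of 1.67% to 4.08% and 2.14% to 4.08% against 7.30% to 12.4%. Over all lengths the 53-nt reads enter it, and it was 22.9% and 5.13% against 21.2%, with overlap. In all other tRNAs the share was 0.405% and 0.412% against 0.371% up to 49 nt, and without Gly-GCC and Glu-CTC 2.67% and 2.73% against 2.34%, so it was not lower there.

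The second class of Ser-AGA came mostly from a single copy. It made up 0.607% and 1.11% of Ser-AGA reads in Alkbh3-/- libraries, against 1.78% in wild type. tRNA-Ser-AGA-1-1 held 4 of 6 and 13 of 21 of these reads in Alkbh3-/- libraries, and 11 of 12 in wild type. For that copy the second class share was 2.74% and 4.83%, against 11%. In Ser-TGA the share was 2.88% and 2.43% against 12.8% for tRNA-Ser-TGA-2-1 and 4.49% and 5.63% against 20.8% for tRNA-Ser-TGA-2-2. These 2 copies have the same 82 bases, so their values are not separate measurements.

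In RPM, the smaller share came with lower second class values and higher first class values, and neither passed the test. A test of each isoacceptor and end class up to 49 nt, added after the shares were seen, called 0% of 93 features with edgeR. There, 15 had an unadjusted p under 0.05, and DESeq2 called 2, none of them serine. The second class of Ser-TGA had a log2 fold change of −1.54 (SE 0.32), with an adjusted p of 0.26, and that of Ser-GCT −1.10 (SE 0.30), with an adjusted p of 0.30, both by edgeR. The first class had 0.80 in Ser-AGA, 0.78 in Ser-TGA and 0.73 in Ser-GCT. The Ser-AGA and Ser-TGA values rest mostly on reads of 24 nt or shorter, so they are not separate measurements. Over all lengths, edgeR called 7.53% of the 93 features (3.23% higher and 4.3% lower) and 0 of the 8 serine features.

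**Figure D4:**
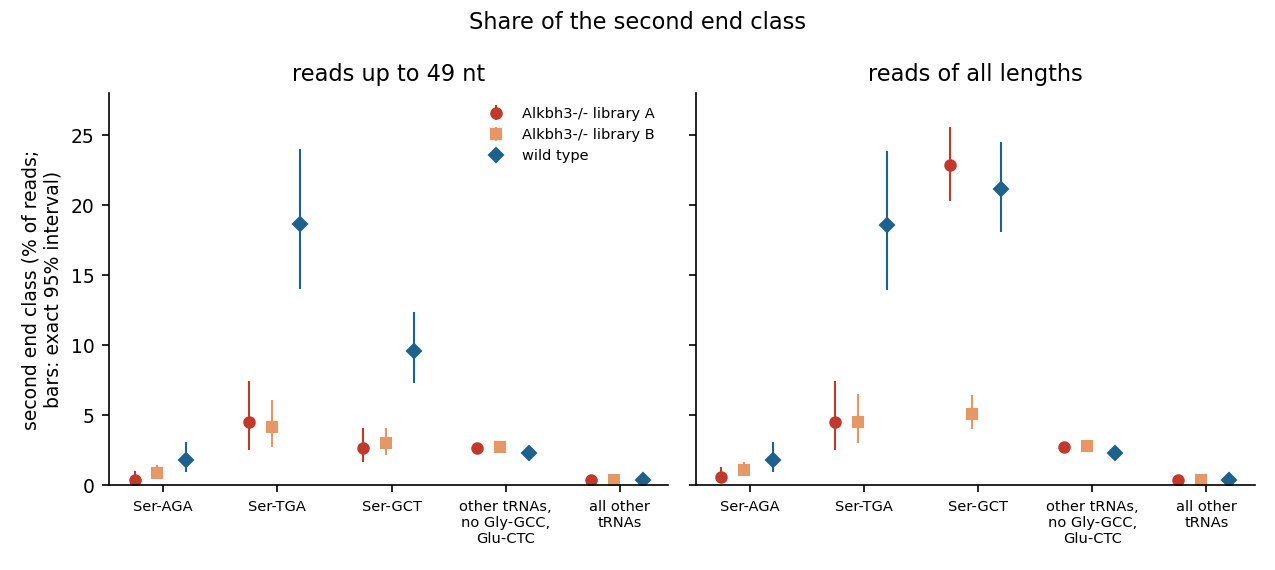
Share of the second end class in each library, for reads up to 49 nt (left panel) and of all lengths (right panel), with exact 95% intervals for counting error. Ser-TGA is lower in both Alkbh3-/- libraries in both panels, while Ser-GCT of library A reaches 22.9% with the long reads included, against 21.2% in wild type.

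A single serine fragment passed the test by length and end class, the 35-nt second class read of Ser-GCT. It had 7 reads in library A and 8 in library B, against 34 in wild type, so both Alkbh3-/- libraries were lower. The log2 fold change was −2.43 (SE 0.72, edgeR adjusted p 0.038). The call was lost with TMM scaling (adjusted p 0.19), the legacy method (adjusted p 0.10) and the table's own sum as library size (adjusted p 0.070), all by edgeR, and DESeq2 gave no adjusted p for it. The first class had 15 and 28 reads of 35 nt against 5 in wild type, so with both end classes summed the 35-nt log2 fold change was −0.70 (SE 0.68, edgeR adjusted p 0.67). Of all 751 fragments tested, 2.13% passed, beside 1 of 27 serine fragments, and 1.2% were called lower. Serine fold changes were above 0 for 23 of the 27, beside 378 of all 751. Their median was 0.89, and the median of all fragments was 0.01. The 27 are not all separate measurements, because the sequenced Ser-AGA and Ser-TGA copies share their first 24 and last 24 bases. These values describe only fragments with 30 or more reads over the 3 libraries, a limit that a fragment can reach through its Alkbh3-/- reads alone. A second class read of Ser-TGA at 36 nt, chosen after its values were seen, had 6 and 13 reads against 24 in wild type (−1.60, SE 0.70, edgeR adjusted p 0.22).

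The reads of 18 nt, also chosen after their values were seen, were nearly absent from wild type. Ser-AGA had 23 and 22 in Alkbh3-/- libraries against 1 in wild type, all of the first class. The pooled ratio of RPM was 18.6, with a 95% counting interval of 3.17 to 750.1. Ser-GCT had 8 and 23 against 1, a ratio of 12.8 with an interval of 2.13 to 521.8. Ser-TGA had 8 and 7 against 0, too few to enter the test. As a share of their reads, 18-nt reads were 1.68% and 1.37% over all serine tRNAs in Alkbh3-/- libraries against 0.125% in wild type, and 0.0119% and 0.0165% against 0.00657% in other tRNAs without Gly-GCC and Glu-CTC. The 18-nt reads of Ser-AGA and Ser-GCT reached the limit of 30 reads through the Alkbh3-/- libraries alone, so they are given as values and their test is not used. The 2 intervals pool the Alkbh3-/- libraries and cover counting error only. For reads picked on this same contrast, they cannot be read as a test either.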

How the data were processed

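Small RNA reads of 2 Alkbh3-/- libraries and 1 wild type library of mouse epididymis were analysed. The authors deposited raw read counts of 5 RNA classes, raw read counts of tRNA genes and, per library, counts by fragment length and end class. The submitters' processing notes name cutadapt and build mm10, without a version or role. No aligner or counter is named in the sources used here, nor the handling of multiply mapping reads. In the fragment tables, 6 columns of sums were not used.

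The members and the compared lists were chosen with earlier results of these data known. Counts were summed per isoacceptor. Isoacceptors and copies with 10 or more reads over the 3 libraries, and fragments (isoacceptor, length and end class) with 30 or more, were tested by edgeR's quasi-likelihood functions glmQLFit and glmQLFTest (edgeR 4.0.16, R 4.3.3). Library size was the sum of the 5 classes, with no composition factor, and p-values were adjusted by Benjamini-Hochberg over each whole table with a threshold of 0.05. DESeq2 1.42.0, TMM, other filters and left-out libraries served as alternatives, and the scripts were tested on simulated data. RPM are counts per 1000000 reads of the 5 classes. Shares carry exact Clopper-Pearson 95% intervals (SciPy 1.17.1), for counting error only.

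Named are all 4 isoacceptors, the 2 copies and the 3 fragments of each with the highest mean RPM, any member past the threshold, and of the compared lists those past the threshold and the 2 with the highest mean RPM.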

Additional observations from a re-analysis of the deposited data

How the results depend on the processing

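Of the 4 serine isoacceptors, Ser-AGA passed the threshold in 4 of 8 settings with a test, with adjusted p between 0.0050 and 0.26. Its log2 fold change was 0.91 with DESeq2, 0.78 with TMM, 0.60 with the legacy method and 0.82 with the reads of the fragment tables, none of them past the threshold. Without 1 Alkbh3-/- library at a time, it ran between 0.43 and 0.74, as values with no test. Ser-CGA turned to −0.36 without its most-read copy, and Ser-TGA gave −0.01 without library B. The number of serine isoacceptors past the threshold was 0 instead of 1 with DESeq2, TMM, the legacy method, the fragment tables and Ser-AGA and Ser-TGA summed. Over all isoacceptors it was 3 with DESeq2 and 5 with the legacy method instead of 11. Serine copies past it were 1 instead of 0 with no filter and with the table sum as library size, and all copies 18 with DESeq2, 23 with TMM and 21 with the table sum instead of 36. Serine fragments past it were 0 instead of 1 with TMM and the legacy method, which tested the 35-nt second class read of Ser-GCT. They were also 0 with 10 or more reads required in each library, which left that read untested. With DESeq2, which gave no adjusted p for that read, they were 0 as well. With end classes summed they were 2, the 18-nt reads of Ser-AGA and Ser-GCT and not the 35-nt read. Those 2 reached the limit on reads through the Alkbh3-/- libraries alone, so their calls are not used. All fragments past the threshold were 28 with DESeq2, 0 with TMM and 33 with the table sum instead of 16. The calls that were higher and lower in Alkbh3-/- libraries were 12 and 6 of the copies with DESeq2, 9 and 14 with TMM and 10 and 11 with the table sum, instead of 9 and 27. For fragments they were 21 and 7 with DESeq2 and 27 and 6 with the table sum, instead of 7 and 9. The cause of these changes was not tested.

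For shares, in percentage points of Alkbh3-/- minus wild type, the first end class alone gave 3.26 for Ser-AGA at 24 nt or shorter instead of 4.09, and 4.58 for Ser-TGA instead of 17.3. A window of 30 to 36 nt instead of 30 to 33 nt gave −2.89 instead of −1.79 for Ser-AGA, −2.47 instead of 4.05 for Ser-CGA and −12.2 instead of −3.58 for Ser-TGA. The second end class of Ser-TGA up to 49 nt gave −14.3 instead of −14.1. Over all lengths, the log2 fold change of the second class of Ser-AGA was 0.015 with DESeq2, 0.19 with TMM and 0.16 with the table sum instead of −0.11. That of Ser-GCT was 0.30 with DESeq2, 0.30 with TMM and 0.20 with the table sum instead of −0.11.

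Depth limited Ser-CGA, with 23 to 37 fragment reads a library, and every 18-nt value. No paired analysis was possible because neither the wild type label nor the deposited columns carry a replicate number, and the lone wild type library could not be left out.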
